A study of Homo sapiens with 4 samples.

Results

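The clustered protocadherin genes lie next to each other on the long arm of chromosome 5 in an alpha, a beta and a gamma cluster. They were taken here as every gene whose symbol starts with PCDHA, PCDHB or PCDHG. Of 19483 genes that could be named on the MeTA-array, 50 belonged to the clusters: 15 alpha, 18 beta and 17 gamma genes, with 16, 19 and 23 probes. The beta cluster included 3 pseudogenes (PCDHB17P, PCDHB18P and PCDHB19P) and the gamma cluster included PCDHGB8P. The RefSeq table listed 59 genes in the clusters, and PCDHA14, PCDHB3, PCDHGA1, PCDHGA4, PCDHGA6, PCDHGB5, PCDHGA10, PCDHGA11 and PCDHGB9P were paired with no probe. The MeTA-array asked which genes changed when NFκB (AD)-MBD, a fusion of an NFκB activation domain and a methyl-CpG-binding domain, was induced in LNCaP, a human prostate cancer cell line. The lines TR9_MeTA14 and TR15_MeTA5 (TR9-MeTA14 and TR15-MeTA5 in the sample labels) were each put on 1 array after 4 days of tetracycline (+Tet) and on 1 array untreated (-Tet), which makes 4 arrays. Both lines are stable clones made from LNCaP cells that express a Tet repressor (TR9 and TR15), and both carry the NFκB (AD)-MBD construct under tetracycline control, so the -Tet cells carry the repressor and the construct too. No array of TR9 or TR15 cells that lack the construct was used here, so an effect of tetracycline itself and of the construct cannot be told apart.

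Clustered protocadherins are cadherin-like adhesion proteins of the cell surface, best known from neurons, where each cell expresses its own combination of them and identical proteins on touching membranes bind each other. In the alpha and gamma clusters each variable exon has its own promoter and is spliced to constant exons that the whole cluster shares. Each beta gene is a single exon with no shared constant part. Which promoter is used depends on CTCF, a DNA-binding protein that is kept off methylated sites, together with cohesin, on distant enhancers and on DNA methylation of the promoters. The clusters have been found methylated and silent in several cancers. The C-type genes at the ends of the alpha and gamma clusters (PCDHAC1, PCDHAC2, PCDHGC3, PCDHGC4 and PCDHGC5) are regulated apart from the others. DNA methylation was not measured on these arrays.

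Promoter windows of the clusters are shown first, since the MBD part of the construct reads methylated CpG sites of DNA. Windows of 300 bases around the gene start, from RefSeq on GRCh38.p14 and all on the + strand, were at hand for 40 of the 50 genes with a probe. There was no entry for PCDHA3, PCDHA13, PCDHB6, PCDHB11, PCDHB17P, PCDHB18P, PCDHB19P, PCDHGB8P, PCDHGA12 and PCDHGC5. The 10-base word that most genes of the beta cluster shared was GGTGGCGCTG, found in 12 of the 14 beta genes with a window and, on either strand, in 97 of all 35116 promoters (0.276%). Its first base lay 2 to 84 bases before the gene start. PCDHB1 and PCDHB14 lacked it. The stretch around the word, with the word in capitals and 10 bases on each side, is given for the 11 beta genes that also had a probe.
PCDHB2 (chr5:141094545-141094574): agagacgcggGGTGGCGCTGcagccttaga
PCDHB4 (chr5:141121724-141121753): caagacgcagGGTGGCGCTGcaggctaagt
PCDHB5 (chr5:141135180-141135209): taggacgcctGGTGGCGCTGcaggctaaga
PCDHB7 (chr5:141172567-141172596): caaaacgcaaGGTGGCGCTGctggctaaaa
PCDHB8 (chr5:141177778-141177807): gaggacccgtGGTGGCGCTGcaggataaga
PCDHB16 (chr5:141182311-141182340): gagaacgcgtGGTGGCGCTGcaggttaaga
PCDHB9 (chr5:141187075-141187104): gaagccacaaGGTGGCGCTGcagactgaag
PCDHB10 (chr5:141192300-141192329): gaggccacacGGTGGCGCTGcaggctaaag
PCDHB12 (chr5:141208644-141208673): ggagacgcgtGGTGGCGCTGcaggataata
PCDHB13 (chr5:141213866-141213895): gaggacgcgtGGTGGCGCTGcaggataaga
PCDHB15 (chr5:141245315-141245344): gacaacgcatGGTGGCGCTGcaggctaagg
Of these 11 genes, 10 were well above background on at least 1 array, and 9 stood at least 2-fold higher in TR9_MeTA14 +Tet than -Tet. Over the array 10.8% of all probes stood so, and of the 18 beta genes with a probe 11 did. Only 2 beta genes with a probe and a window lacked the word, too few for a comparison. PCDHB14, without an exact match, was also at least 2-fold higher there, and PCDHB7, with the word, was not above background on any array.

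The alpha and gamma clusters had other shared words. In alpha it was ATGATGTCGC, 1 of 3 words tied in the number of genes, in 8 of 13 genes with a window and in 11 of all promoters (0.0313%). In gamma it was GCGCCGCTGT, in 9 of 20 genes and in 46 of all promoters (0.131%). No promoter held more than 1 of the 3 words. The stretches are given for the alpha and gamma members with the word that had a probe measured on all arrays, and for PCDHGB1, of which 1 probe was past 2-fold in both lines, with the word in capitals.
PCDHA5 (chr5:140821541-140821570): tttcatccacATGATGTCGCtggacaccgg
PCDHA7 (chr5:140834171-140834200): tgatggccacATGATGTCGCtctttaccgc
PCDHGB1 (chr5:141350027-141350056): caacctctggGCGCCGCTGTcgaccaaaag
PCDHGA7 (chr5:141382651-141382680): aggactcacaGCGCCGCTGTtcaccaacca
PCDHGB4 (chr5:141387619-141387648): ctgactctggGCGCCGCTGTtggccaaagt
PCDHGA8 (chr5:141392570-141392599): aggactgtaaGCGCCGCTGTtcacctactg
Of the 8 alpha genes with the word, 3 were well above background on at least 1 array, and 0 passed 2-fold upwards in TR9_MeTA14. The 5 alpha genes without it were not above background on any array. Of the 9 gamma genes with the word, 6 had a probe and 4 were well above background. PCDHGB1 and PCDHGA8 passed 2-fold upwards in that line. Another 8 gamma genes had a probe and a window without the word, of which 5 were well above background and 0 passed. Over the array 10.8% of all probes passed. These genes were too few to compare those with and without the word. The words were picked because the members share them, so their frequency in the clusters is a description, and a match does not show that a protein binds there.

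Windows of 3 genes are given in full, a beta gene that was higher with tetracycline in TR9_MeTA14 (PCDHB5), a beta gene that was not above background (PCDHB7) and a gamma gene with 1 of its probes well above background on every array (PCDHGA8), with the cluster's word in capitals.
PCDHB5 (chr5:141134956-141135255): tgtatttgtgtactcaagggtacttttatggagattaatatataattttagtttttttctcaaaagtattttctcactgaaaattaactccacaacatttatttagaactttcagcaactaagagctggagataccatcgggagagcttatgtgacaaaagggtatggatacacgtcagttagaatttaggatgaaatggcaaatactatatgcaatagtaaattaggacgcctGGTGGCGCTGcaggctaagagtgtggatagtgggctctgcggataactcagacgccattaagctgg
PCDHB7 (chr5:141172394-141172693): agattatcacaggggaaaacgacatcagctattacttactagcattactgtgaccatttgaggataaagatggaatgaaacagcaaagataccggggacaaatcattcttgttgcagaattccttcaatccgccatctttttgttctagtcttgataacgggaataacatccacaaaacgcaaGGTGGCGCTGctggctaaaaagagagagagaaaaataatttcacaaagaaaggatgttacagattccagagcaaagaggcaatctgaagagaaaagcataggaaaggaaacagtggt
PCDHGA8 (chr5:141392383-141392682): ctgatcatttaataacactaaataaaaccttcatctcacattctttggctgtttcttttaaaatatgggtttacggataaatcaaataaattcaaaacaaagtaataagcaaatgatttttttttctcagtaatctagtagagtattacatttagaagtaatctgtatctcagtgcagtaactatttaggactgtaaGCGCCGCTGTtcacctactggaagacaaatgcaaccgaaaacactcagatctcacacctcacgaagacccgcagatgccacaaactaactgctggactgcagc
CpG sites were sparse in these windows, with 6 in each of the 3. Beta windows held 5 to 12 CpG (median 7.5), alpha windows 3 to 27 (median 7) and gamma windows 2 to 25 (median 10), against a median of 14 over all promoters. The highest counts were at C-type genes and GB genes, with 27 in PCDHAC1 and 25 in one of the windows of PCDHGB6, and both genes were not above background on any array. PCDHGB4, with 13 and 17 in its windows, was well above background on every array, and PCDHA2, with 3, was on none. A link between CpG counts and signals was not tested.

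On the arrays, the processed signal is the brightness of a spot after background subtraction. Log2 signals were scaled by subtracting the 75th percentile of each array, so that a scaled log2 signal of 0 is that percentile. This percentile lay at signals from 367 to 777, and the lowest signal flagged well above background lay between 13.9 and 19.2. The flag was given to between 20560 and 24217 of the 34127 non-control probes, depending on the array. Where 1 array of a pair was not, the fold change is a lower bound against the lowest signal that was and is written "at least". Where the probe's own unflagged signal was higher than that, it was used instead. The value is then a plain ratio and no strict bound. As there was 1 array per condition, a difference within a line has no replicate error and no test. The fold changes are set against a technical SD of a log2 ratio of 0.087, from probes with 10 spots, and against the larger errors that follow from Feature Extraction's error of each signal. The errors leave out the spread between cultures. Across the 19298 probes measured on all 4 arrays, the median log2 fold change with tetracycline was -0.15 in TR9_MeTA14 and -0.19 in TR15_MeTA5.

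The beta and gamma clusters were partly expressed in these cells and the alpha cluster hardly. Of the 16 alpha probes, 2 and 3 had the flag on the -Tet and +Tet arrays of TR9_MeTA14, and 2 on each array of TR15_MeTA5. Of the 19 beta probes, 11 and 15 passed on the -Tet and +Tet arrays of TR9_MeTA14 and 12 and 14 on those of TR15_MeTA5. Of the 23 gamma probes, 10 and 14 passed in TR9_MeTA14 and 10 and 12 in TR15_MeTA5. With tetracycline 10 member probes came to be well above background in TR9_MeTA14 and 1 no longer was. In TR15_MeTA5 4 member probes came to be so and 0 were lost. The flag became more common over the whole array too. TR9_MeTA14 had 21918 flagged probes without tetracycline and 24217 with it, and for TR15_MeTA5 the counts were 20560 and 21599. Gains and losses of single probes were not counted over the array, so the members' gains have no matching background share. No array flagged the remaining 25 member probes, with signals between 2.88 and 20.1, and 22 member genes had no flagged probe. The unflagged ones included both PCDHA11 probes, PCDHB1 (10 spots), PCDHB7, PCDHGB3, PCDHGA9 and PCDHGB6. Whether fewer cells express a gene or each cell holds less of its RNA cannot be told apart in bulk RNA.

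**Figure D1:**
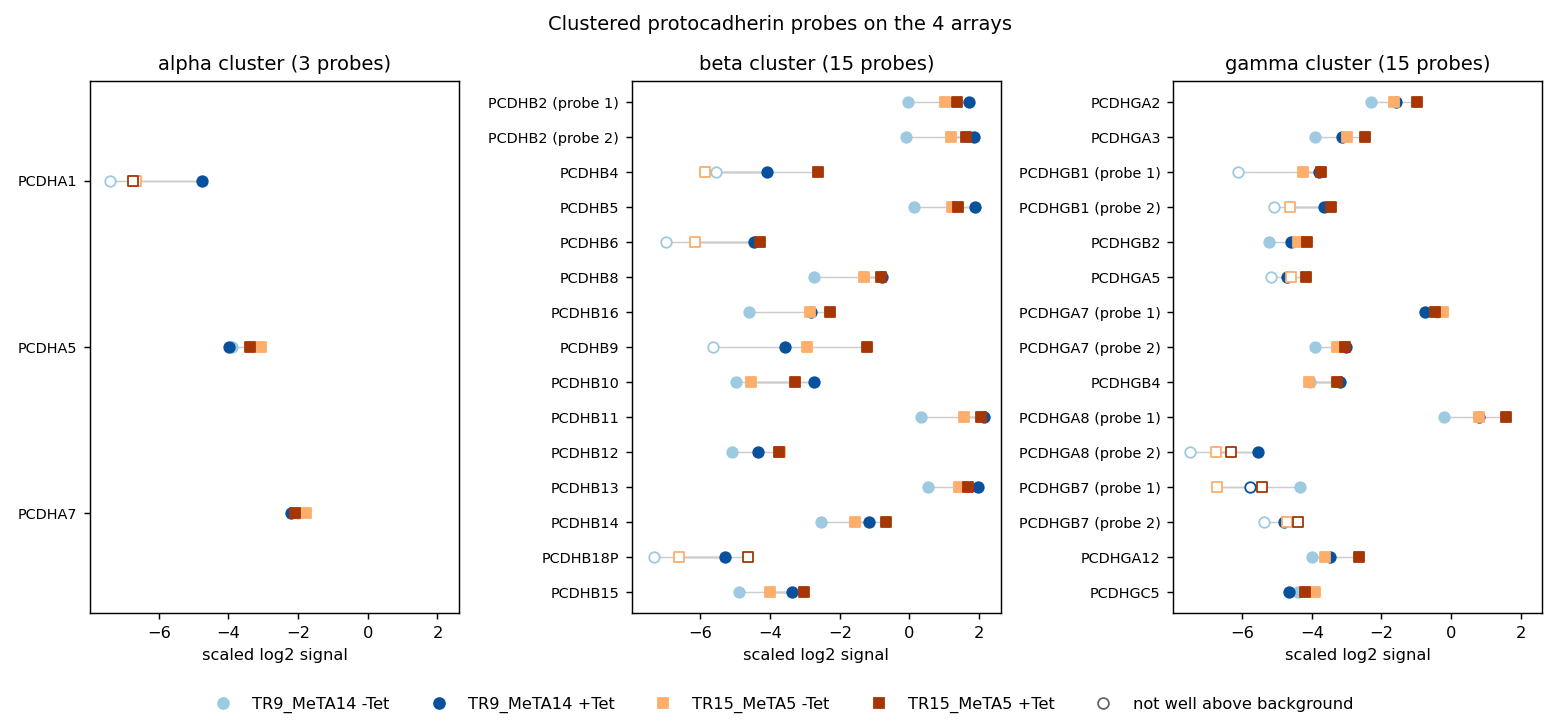
Scaled log2 signal (x axis) of the 33 member probes that were well above background on at least 1 array, by gene in chromosomal order, with circles for TR9_MeTA14, squares for TR15_MeTA5, light colours for -Tet, dark colours for +Tet and open symbols where a probe was not well above background. Each probe is read along its own row only, overlapping symbols hide each other, and in most beta rows the light circle of TR9_MeTA14 -Tet lies apart to the left of the other arrays.

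With tetracycline, 15 of the 58 member probes (25.9%) were at least 2-fold higher in TR9_MeTA14, against 10.8% of all probes. They were 12 beta probes of 11 genes and 3 gamma probes of 2 genes. In TR15_MeTA5 there were 4 (6.9%), against 5.56% of all probes, which is near the background. The 4 were PCDHB4, PCDHB9, PCDHB10 and 1 probe of PCDHGB1, and as each was also past 2-fold in TR9_MeTA14, both lines shared these 4, against 4.45% of all probes. In TR9_MeTA14, 1 member probe (of PCDHGB7) was at least 2-fold lower, against 10.7% of all probes. None was in TR15_MeTA5, against 1.75%, nor in both lines, against 0.566%. With scaling on spike-in probes, 8 members (6.49% of all probes) were past 2-fold higher in both lines and 11 (9.07%) in TR15_MeTA5. With normexp and quantile normalization together the counts were 6 in TR9_MeTA14 (6.83% of all probes), 1 in TR15_MeTA5 (3.4%) and 0 in both lines (2.84%).

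In the beta cluster, the probes of PCDHB13, PCDHB11, PCDHB5 and PCDHB2 were far above background on every array. These genes encode adhesion proteins of the same build. PCDHB11 had signals of 781 in TR9_MeTA14 -Tet and 3420 in TR9_MeTA14 +Tet, and of 1090 and 2250 in TR15_MeTA5 -Tet and +Tet. After scaling it was 3.48-fold higher with tetracycline in TR9_MeTA14 (log2 1.80, Feature Extraction error 0.20) and 1.40-fold higher in TR15_MeTA5 (log2 0.49). The TR9_MeTA14 -Tet array was thus the low one and the other 3 lay closer together. PCDHB13 read 884 and 3030 in TR9_MeTA14 and 983 and 1740 in TR15_MeTA5, a 2.72-fold and a 1.20-fold difference after scaling. PCDHB5 read 673 and 2860, and 858 and 1430, with 3.38-fold and 1.13-fold. PCDHB2 has a pair of probes, which gave 3.38-fold and 3.88-fold in TR9_MeTA14 and 1.27-fold and 1.33-fold in TR15_MeTA5, so that they differed little from each other. All these genes were past 2-fold in the first line and short of it in the second.

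The beta genes past 2-fold in both lines had signals near background on at least 1 array. PCDHB9 was not well above background in TR9_MeTA14 -Tet (12.3) and read 65.7 in TR9_MeTA14 +Tet, at least 3.37-fold higher. In TR15_MeTA5 it read 48.0 and 233, 3.28-fold higher. Its scaled level was higher in TR15_MeTA5 than in TR9_MeTA14 in either state. PCDHB10 read 19.4 and 117 in TR9_MeTA14, 4.78-fold higher after scaling (log2 2.26, error 0.31), the largest of the members measured on all 4 arrays. In TR15_MeTA5 it read 15.8 and 54.9 (2.36-fold). PCDHB4 was not well above background on either -Tet array (13.1 and 6.22), and read 45.9 in TR9_MeTA14 +Tet, at least 2.36-fold higher, and 88.4 in TR15_MeTA5 +Tet, at least 3.88-fold higher. Both its -Tet arrays were thus low and both +Tet arrays high.

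Signals this close to background are less precise. PCDHB15, which has 10 spots, read 21.0 and 75.7 in TR9_MeTA14 and 22.8 and 66.9 in TR15_MeTA5, and its spots had an SD of log2 signal of 0.431 and 0.277 on the -Tet arrays and of 0.088 and 0.132 on the +Tet arrays. It was 2.87-fold higher in TR9_MeTA14 and 1.99-fold higher in TR15_MeTA5, just outside the cut-off. PCDHB16 was 3.44-fold and 1.52-fold higher, PCDHB8 3.86-fold and 1.40-fold, and PCDHB14 2.62-fold and 1.85-fold. PCDHB12 had the smallest change of those measured on all arrays, with 18.1 and 38.1 in TR9_MeTA14 (1.67-fold higher) and 27.6 and 40.6 in TR15_MeTA5 (log2 -0.01). PCDHB6 was well above background on the +Tet arrays alone (35.1 and 27.7), at least 1.81-fold and at least 1.22-fold higher. Of the pseudogenes, PCDHB18P was well above background in TR9_MeTA14 +Tet (19.5) and on no other array, and PCDHB17P, PCDHB19P and PCDHGB8P were not on any.

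**Figure D2:**
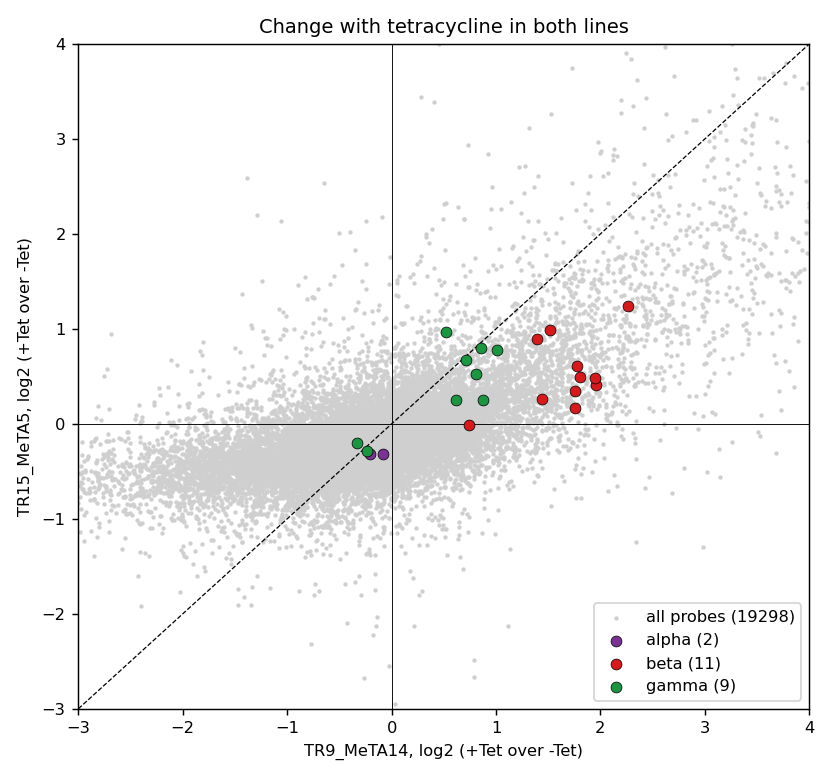
Log2 fold change with tetracycline in TR9_MeTA14 (x axis) and TR15_MeTA5 (y axis) for the 19298 probes with the background flag passed on every array (grey, 358 of them beyond the axes) and the 22 member probes among them, coloured by cluster, with the dashed line marking equal change. All 11 beta probes lie right of 0 and under the dashed line, with a range of 0.74 to 2.26 on the x axis and of -0.01 to 1.24 on the y axis.

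Over the 11 beta probes measured on all 4 arrays, the median log2 fold change was 1.76 in TR9_MeTA14 and 0.48 in TR15_MeTA5, and 11 and 10 of them were above 0, against 41.9% and 31.7% of all probes. The change was larger in TR9_MeTA14 for 11 of 11, under each array scaling tried. Over all probes measured on all 4 arrays, this held for 50.5%. Among those of them at least 2-fold higher in TR9_MeTA14 it held for 93.8%, though picking on that line's change favours this order by itself. Against such probes the order of the lines did not set the beta cluster apart. A gap of at least 1 (log2) between the lines' changes, with TR9_MeTA14 the larger, was seen for 8 of the 11 beta probes, against 8.44% of all probes. It was seen for 8 of the 10 beta probes at least 2-fold higher in TR9_MeTA14, against 54.4% of all such probes. Of the 12 beta probes at least 2-fold higher in TR9_MeTA14, 3 (25.0%) were so in TR15_MeTA5 as well. This stands against 41.3% of all probes at least 2-fold higher in TR9_MeTA14. With 4 arrays there is no test of the difference between the lines' changes. Probe sequences were not at hand, so RNA of a similar beta gene could have added to a probe's signal. The beta counts are thus not counts of independent measurements.

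In the gamma cluster fewer probes were past 2-fold. With one of its probes, PCDHGA8 read 538 and 1360 in TR9_MeTA14 and 636 and 1620 in TR15_MeTA5. It was 2.01-fold higher with tetracycline in the first line, just past the cut-off, and 1.72-fold in the second. Within each line the +Tet array was thus the higher one. The other PCDHGA8 probe was well above background in TR9_MeTA14 +Tet alone (16.5) and gave no fold. PCDHGB1 was measured by a pair of probes. The first read 8.94 (not well above background) and 55.6 in TR9_MeTA14, at least 2.86-fold higher, and 19.1 and 40.5 in TR15_MeTA5 (1.44-fold). The second was not well above background on either -Tet array (18.1 and 14.8) and read 61.6 and 49.7 on the +Tet arrays. It was 2.70-fold higher in TR9_MeTA14, a ratio to its unflagged signal, and at least 2.18-fold higher in TR15_MeTA5. Both probes put the +Tet arrays above the -Tet arrays.

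PCDHGA2 read 126 and 259 in TR9_MeTA14 and 118 and 277 in TR15_MeTA5, 1.63-fold and 1.59-fold higher, short of the cut-off by a like amount in both lines. PCDHGA12 was 1.43-fold and 1.95-fold higher, so that its change was larger in TR15_MeTA5. PCDHGA3 was 1.75-fold and 1.44-fold higher, PCDHGB4 1.81-fold and 1.75-fold, and PCDHGB2 1.54-fold and 1.19-fold. PCDHGA5 was well above background only on the +Tet arrays with 1 of its probes (29.4 and 30.0). It was 1.36-fold higher in TR9_MeTA14, a ratio to its unflagged signal, and at least 1.31-fold higher in TR15_MeTA5. The median over the 9 gamma probes measured on all 4 arrays was 0.71 in TR9_MeTA14 and 0.52 in TR15_MeTA5 (log2), with 7 of 9 above 0 in each line. With quantile normalization these medians were 0.58 and 0.37, with normexp added to it 0.23 and 0.20, and with scaling on spike-in probes 9 of 9 were above 0 in TR15_MeTA5.

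The probes of 2 gamma genes disagreed. For PCDHGA7, one probe read 41.3 and 95.9 in TR9_MeTA14 and 37.4 and 65.8 in TR15_MeTA5, 1.85-fold and 1.19-fold higher. The other read 464 and 465, and 310 and 398, which after scaling was 1.26-fold and 1.15-fold lower. For PCDHGB7, one probe was well above background in TR9_MeTA14 -Tet alone (30.6). It was 2.70-fold lower with tetracycline, a ratio to its unflagged signal. The other was so in TR9_MeTA14 +Tet alone (27.9), at least 1.43-fold higher. Neither probe gave a fold change in TR15_MeTA5. No direction can be given for either gene. The files hold no probe sequences, so a probe could not be placed on a variable or a constant exon, and binding of RNA from a near-identical gene of the cluster to a probe could not be told apart from its own signal.

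In the alpha cluster, PCDHA7 read 154 without and 168 with tetracycline in TR9_MeTA14, 1.16-fold lower after scaling, and its scaled log2 signal went from -1.77 to -2.09 in TR15_MeTA5, 1.25-fold lower. PCDHA5 read 41.0 and 48.9, and 43.5 and 51.6, 1.06-fold and 1.24-fold lower. In TR9_MeTA14 both differences were no larger than their Feature Extraction errors (0.21 for PCDHA7 and 0.25 for PCDHA5 on the log2 scale). With scaling on spike-in probes the medians of the 2 probes were -0.01 and 0.13, so that no direction can be given. PCDHA1 was well above background in TR9_MeTA14 +Tet alone (28.4), at least 1.46-fold higher there. The other 12 alpha genes with a probe were not above background on any array. Of the C-type genes, PCDHAC1, PCDHAC2, PCDHGC3 and PCDHGC4 were not either. PCDHGC5 stood at -4.41 without and -4.65 with tetracycline in TR9_MeTA14, and at -3.91 and -4.20 in TR15_MeTA5 (scaled log2 signal), 1.18-fold and 1.22-fold lower. The difference in TR9_MeTA14 (log2 -0.24) was smaller than its Feature Extraction error (0.31).

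**Figure D3:**
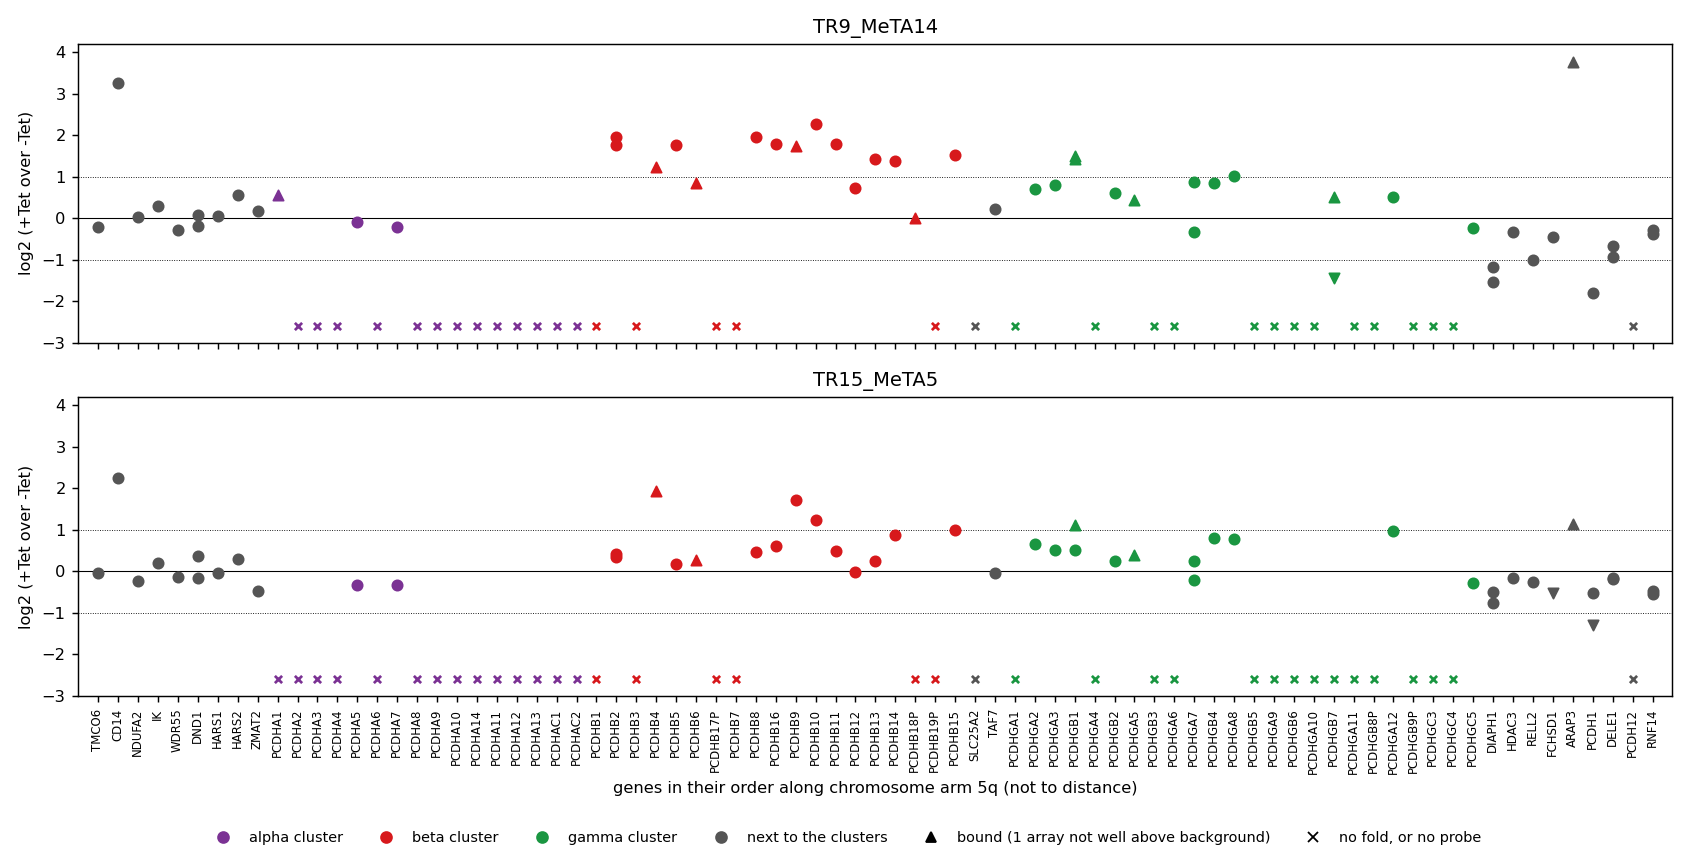
Log2 fold change with tetracycline (y axis) of each probe in TR9_MeTA14 (top) and TR15_MeTA5 (bottom), with genes in chromosomal order (x axis, not to distance). Triangles stand for bounds and for ratios to an unflagged signal, crosses at the bottom for genes without a fold or a probe, and dotted lines for a 2-fold change. The red beta points lie above 0 between PCDHB2 and PCDHB15 in TR9_MeTA14, except the pseudogene PCDHB18P with a bound of 0.00, while TAF7 and the genes from NDUFA2 to ZMAT2 lie near 0.

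Genes next to the clusters did not share the pattern as a group. Of 25 probes of 20 neighbouring genes, 2 were at least 2-fold higher in TR9_MeTA14 and the same 2 in TR15_MeTA5, of CD14 and ARAP3, and 4 (of DIAPH1, RELL2 and PCDH1) were at least 2-fold lower in TR9_MeTA14 and 1 (of PCDH1) in TR15_MeTA5. These counts and those of the lists that follow stand against 10.8% of all probes higher and 10.7% lower in TR9_MeTA14 and 5.56% and 1.75% in TR15_MeTA5. The neighbours' median over the 20 probes measured on all 4 arrays was -0.24 and -0.16 (log2). CD14, a surface receptor of myeloid cells, was 3.27 and 2.25 higher on the log2 scale. ARAP3, a regulator of small GTPases, was at least 3.76 and at least 1.15 higher. TAF7, a subunit of the general transcription factor TFIID whose gene sits between the beta and gamma clusters, was at 0.22 and -0.03, and HARS2 and ZMAT2, before the alpha cluster, were at 0.55 and 0.31 and at 0.18 and -0.46. Of 28 probes for CTCF, cohesin and chromatin factors that act at the clusters, 7 were at least 2-fold lower and 1 higher in TR9_MeTA14, and 1 lower and 0 higher in TR15_MeTA5, with medians of -0.64 and -0.37 over the 26 measured on all arrays. The lower ones included the 3 probes each of SMC1A, a cohesin subunit (-1.64, -1.68 and -1.35 in TR9_MeTA14), and of SMCHD1, a chromatin protein that helps to keep the clusters silent (-1.46, -1.41 and a bound of -1.55), while CTCF was at -0.66 and -0.61. Of the DNA methyltransferases, DNMT3B was also lower in TR9_MeTA14 (-1.10). The higher probe was 1 of 3 of DNMT3A (1.06, the others at 0.91 and 0.46). Nonclustered protocadherins, encoded outside the clusters, had 0 of 19 probes at least 2-fold higher in TR9_MeTA14 and 1 in TR15_MeTA5 (PCDH10, at least 2.02 on the log2 scale), and 2 lower in each line. The other PCDH10 probe was not above background on any array. PCDH1 and PCDH12 were counted among the neighbours too, and a PCDH1 probe was among the lower ones in each line. In TR15_MeTA5 that was a dim probe with a bound, while the brighter PCDH1 probe was at -0.51. Of the 18 probes of intracellular partners of protocadherins, 2 were at least 2-fold higher in each line and 4 were lower in TR9_MeTA14.

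Without tetracycline the lines differed in the beta cluster. In TR15_MeTA5 -Tet, 9 member probes (8 beta, 1 gamma) were at least 2-fold higher than in TR9_MeTA14 -Tet, against 5.35% of all probes, and 0 were lower, against 3.48%. The largest difference was for PCDHB9 (at least 5.22-fold), followed by PCDHB16 with 3.35-fold and PCDHB8 with 2.70-fold. All 11 beta probes measured on all 4 arrays were higher in TR15_MeTA5 -Tet, by a median of 1.10 (log2, from 0.45 to 1.74), while the median of all probes was 0.13. With tetracycline the same probes lay between -0.57 and 0.61, with a median of -0.08 and 4 of 11 higher in TR15_MeTA5. On the +Tet arrays 2 member probes, PCDHB4 and PCDHB9, were at least 2-fold higher in TR15_MeTA5, against 9.61% of all probes, and 0 were lower, against 6.83%. With this scaling the beta levels of the lines differed on the -Tet arrays and were close on the +Tet arrays. The single TR9_MeTA14 -Tet array enters both the change with tetracycline in that line and the difference between uninduced lines, so these are not independent observations. With scaling on spike-in probes the median of all probes between the uninduced lines moved to -0.92 and that of the beta probes to 0.05 (7 of 11 higher), and 1 member probe was past 2-fold. On the +Tet arrays it put all probes at -0.64 and the beta probes at -0.83 (0 of 11 higher), so that the levels themselves were then close on the -Tet and apart on the +Tet arrays. The gap between the beta probes and all probes was larger on the -Tet than on the +Tet arrays. Both scalings subtract a constant from each array, so this gap is the same under both by construction.

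**Figure D4:**
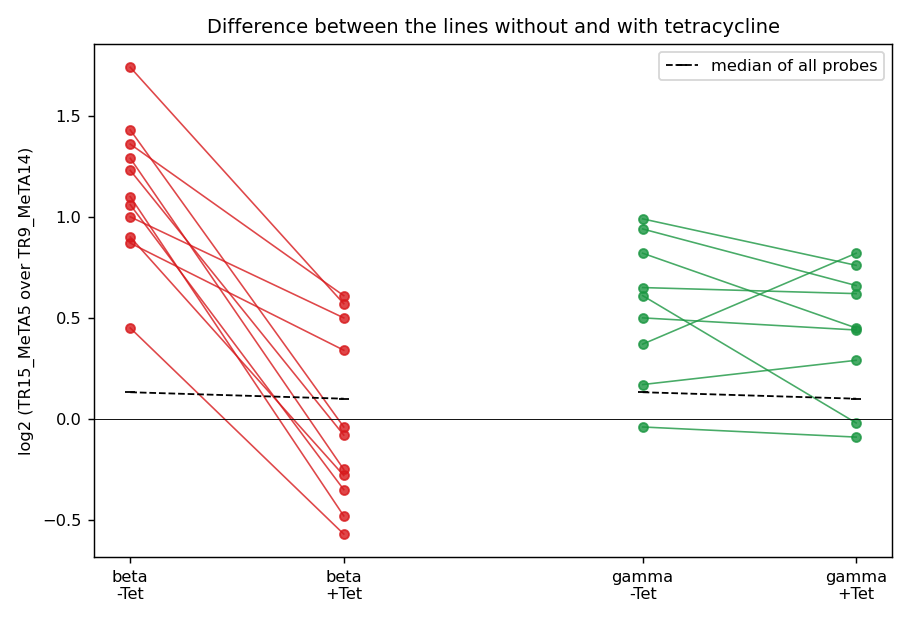
Log2 ratio of TR15_MeTA5 over TR9_MeTA14 (y axis) on the -Tet and the +Tet arrays for the 11 beta (red) and 9 gamma (green) probes measured on all 4 arrays, each line joining 1 probe, with the median of all probes dashed. The beta probes go from 0.45 to 1.74 on the -Tet arrays to -0.57 to 0.61 on the +Tet arrays, and the gamma median goes from 0.61 to 0.45.

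Over both lines, limma with the cell line as a block tested 28 member probes. None passed an adjusted p of 0.05, against 2.6% of the 22808 probes tested that passed as higher. At an unadjusted p under 0.05, 11 of the 28 were higher (9 beta and 2 gamma probes, 39.3%), against 11.5% of all probes, and 0 were lower. The lowest adjusted p was 0.0782 for PCDHB9, with a log2 fold change of 1.90 and an SE of 0.32 in limma. PCDHB6 followed with 2.19, an SE of 0.45 and an adjusted p of 0.118. PCDHB10 had 1.75 (SE 0.41, adjusted p = 0.156) and PCDHB4 2.37 (SE 0.57, adjusted p = 0.157). The coefficients of PCDHB6 and PCDHB4 rest on -Tet signals that were not well above background in either line, and that of PCDHB9 on such a signal in TR9_MeTA14, and are no bounds. PCDHB4, PCDHB6 and 1 probe each of PCDHGB1 and PCDHGA5 entered the fit through flags on the +Tet arrays alone. This way of entry favours a coefficient above 0, and all of them but PCDHGA5 count among the 11. Among the gamma genes, PCDHGA8 had 0.90 (SE 0.25, adjusted p = 0.208), and all 14 beta probes tested had a coefficient above 0, as did 10 of 12 gamma and 0 of 2 alpha probes. This fit has 1 residual degree of freedom, as the lines are its only replicates. With scaling on spike-in probes 2 members passed, with a lowest adjusted p of 0.0324, and the lowest adjusted p lay between 0.0615 and 0.197 under the other settings.

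Some markers of cell identity changed with tetracycline too, in either direction. LNCaP markers, genes of the prostate luminal cell such as KLK3, were well above background on all 4 arrays with all 11 probes of 7 genes, but 5 of the 11 were at least 2-fold lower with tetracycline in TR9_MeTA14 and 1 was in TR15_MeTA5 (medians of -0.86 and -0.67 on the log2 scale). Of 15 probes for markers of leukocytes, endothelium, fibroblasts, basal epithelium, neuroendocrine cells and neurons, 4 and 7 were well above background on the -Tet and +Tet arrays of either line, and 2 of them passed 2-fold upwards in each line. These were TUBB3, a neuronal tubulin (5.43 and 2.59), and CHGA, a granule protein of neuroendocrine cells (at least 2.02 and at least 3.90). The median of the list over the 4 probes measured on all arrays was 0.00 in TR9_MeTA14 and 0.19 in TR15_MeTA5, and SNAP25, a synaptic protein well above background on all arrays, was at -0.40 and -0.48. SYP, KRT5 and KRT14 were not above background on any array, and RBFOX3 was in TR15_MeTA5 +Tet alone. The part of these shifts in the values of the protocadherin genes was not tested.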

How the data were processed

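Total RNA of 4 cell samples was labelled with Cy3 and hybridized to Agilent whole human genome arrays, all on 1 slide, which leaves no test for a slide effect. The authors deposited Agilent Feature Extraction output (version 10.7.3.1 in the file headers, 9.5.1 in the submitters' processing notes), in which the processed signal is a background-subtracted intensity that is not normalized between arrays. The deposited series table holds the same intensity values on all 44495 rows.

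Outlier spots (255 to 344 per array) were left out, log2 signals averaged per probe, and the 75th percentile over non-control probes subtracted, giving factors of 1.26 in TR9_MeTA14 and 1.48 in TR15_MeTA5 between the arrays of a line. Background calls are Feature Extraction's flags. A change was called at 2-fold, the cut-off of the study's methods, and a bound under 1 gives no fold. RefSeq accessions named 25422 probes (74.5%) with 1 gene. The array was annotated on hg19 and the RefSeq table is on GRCh38.p14, so for the probes the table gave names, pseudogene status and gene order alone. The promoter windows and their positions are from RefSeq on GRCh38.p14 too. limma 3.58.1 in R 4.3.3 used an intensity trend, the cell line as a block and Benjamini-Hochberg adjustment over the 22808 probes that 2 or more arrays flagged as well above background, after a check on simulated data. Python 3.11.15, numpy 2.4.6 and pandas 2.3.3 did the rest.

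Named per cluster were up to 6 probes past 2-fold higher in both lines, the 3 brightest, any past 2-fold lower, C-type genes, pseudogenes and genes with disagreeing probes; others were added after their values were seen, and the other lists name genes with large changes and genes that border or act on the clusters. Members, lists and the comparison of uninduced lines were chosen with earlier results of these data known. Alternatives were other scalings (quantile, median, spike-in), normexp with an offset of 50, the series table, all spots, other filters and cut-offs, no block and no trend. Some cell type markers are not reported here.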

Additional observations from a re-analysis of the deposited data

How the results depend on the processing

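With 1 array per condition, no replicate could be left out. The cell line was the block of the limma fit, and without it 0 members passed as well. The replicate numbers gave no further pairing, as the labels give every group the same single number. The share of all probes with the same call stands in brackets. Normexp with quantile normalization, whose offset of 50 compresses dim probes, gave 6 members higher (6.83%) and 0 lower (6.21%) in TR9_MeTA14, 1 higher in TR15_MeTA5 (3.4%), 0 in both lines (2.84%) and 2 in uninduced TR15_MeTA5 (1.43%), with medians of 0.38 and 0.29 (log2). Scaling on spike-in probes gave 11 higher in TR15_MeTA5 (9.07%), 8 in both lines (6.49%), 1 in uninduced TR15_MeTA5 (0.712%) and 2 by limma (6.39%), with medians of 1.08 and 0.89, and quantile normalization a median of 0.84 in TR9_MeTA14. At a cut-off of 3-fold, 8 were higher (6.63%) and 0 lower (4.72%) in TR9_MeTA14, 2 higher in TR15_MeTA5 (3.38%), 1 in both lines (2.77%) and 2 in uninduced TR15_MeTA5 (1.56%). At 1.5-fold, 11 were higher in TR15_MeTA5 (8.8%), 10 in both lines (6.81%) and 18 in uninduced TR15_MeTA5 (13.6%). A filter on all 4 arrays left 0 lower in TR9_MeTA14 (8.87%), 1 higher in TR15_MeTA5 (3.08%) and 1 in both lines (2.63%). Plain ratios without a filter gave 3 lower in TR9_MeTA14 (13.3%), 8 higher (9.3%) and 1 lower (5.71%) in TR15_MeTA5 and 14 higher in uninduced TR15_MeTA5 (12.7%). The causes of these shifts were not tested. Of single probes, no called fold change changed sign under any setting, and 6 uncalled ones did with spike-in scaling. Signals near background limit most dim members to bounds.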
